A study of Mus musculus with 12 samples.

Results

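The genes described here are 42 genes of glucose breakdown and of the response to low oxygen. They were chosen by name as a set of glucose transporters, glycolytic enzymes, lactate handling genes, subunits and regulators of the hypoxia-inducible factor (HIF), and HIF targets, and each was located through the gene symbols of the array annotation. Of the 42 genes, 39 had a feature (a probe set or transcript cluster) annotated to that gene alone on at least 1 of the 2 array designs, against 19644 such genes in the whole series. The Mouse Genome 430 2.0 arrays carried 38 of them on 87 probe sets, the Mouse Exon 1.0 ST arrays carried 35 on 36 transcript clusters, and 34 were on both. Gpi1, Eno1 and Gapdh had no such feature in the main test of either design, Bnip3l had none on the 430 arrays, and Hk3, Pgk1, Pgam1 and Ldha had none on the exon arrays.

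RNA came from PUER cells, mouse myeloid progenitors without endogenous PU.1 into which the transcription factor PU.1 was put back as a fusion with the ligand-binding domain of the estrogen receptor (PU.1-ER). All groups grew in medium with 5 ng/ml mouse interleukin-3 (IL-3), puromycin and serum, and each design had 3 arrays at 0 h without 4-hydroxytamoxifen (OHT) and 3 arrays at 24 h with 100 nM OHT, which activates the fusion. The study asked which genes respond to PU.1. No arm of 24 h without OHT was analysed here, so OHT, the change of medium and time in culture cannot be told apart, and in bulk RNA fewer cells of a type cannot be told apart from less RNA per cell.

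Glycolysis splits glucose to pyruvate in the cytosol, and lactate dehydrogenase turns pyruvate to lactate, which leaves the cell through proton-linked transporters. HIF is a dimer of an oxygen-regulated alpha subunit (Hif1a or Epas1) with Arnt; when oxygen is present, prolyl hydroxylases of the Egln family mark the alpha subunit for destruction. HIF raises transcription of many glycolytic genes, of Egln1 and Egln3 themselves and of genes for blood vessel growth and mitochondrial turnover. Proliferating blood cell progenitors and activated macrophages are both known for high glycolytic rates.

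The time labels of the exon arrays went against those of the 430 arrays for most genes. Over the 13356 genes on both designs, the change on the exon arrays correlated with the change on the 430 arrays at r = -0.861 (Pearson) and -0.723 (Spearman), a description across genes, which are not independent replicates. The 6 macrophage markers had a mean log2 level of 5.48 to 5.61 on the 0 h arrays and 8.91 to 8.94 on the 24 h arrays of the 430 design, and all 6 were called higher. On the exon design the same list lay at 7.72 to 7.85 on the arrays labelled 0 h and at 5.06 to 5.11 on those labelled 24 h, and all 6 were called lower. The 6 progenitor markers moved the other way on each design, from 10.94 to 10.96 down to 9.04 to 9.10 on the 430 arrays (4 lower, Mpo higher) and from 8.05 to 8.12 up to 9.40 to 9.54 on the exon arrays (4 higher, Mpo lower). Cd34 lay below the median feature of both designs, and of the mast cell and basophil markers 4 of 6 and 5 of 6 did. That list's mean level lay between 5.76 and 5.89 at 0 h and between 5.64 and 5.71 at 24 h on the 430 arrays, and between 3.74 and 3.86 at 0 h and between 4.10 and 4.18 at 24 h on the exon arrays. Mcpt8, a basophil protease above the median feature, was lower by 1.48 on the 430 arrays (adjusted p = 5.37e-07) and higher by 1.36 on the exon arrays (adjusted p = 0.000349). The other mast cell and basophil markers did not all follow Mcpt8. In the 430 design Ms4a2 was also called lower (-0.42, adjusted p = 0.00506). Tpsb2, below the median feature, was called higher there (0.34, adjusted p = 0.00444). Cma1, Fcer1a and Cpa3 changed by 0.35, 0.29 and 0.09 in that design and were not called. In the exon design only Mcpt8 of this list was called. The part of these cell types in the results below was not tested. Every direction below is therefore given as the arrays are labelled, "higher" and "lower" mean the arrays labelled 24 h against those labelled 0 h, and if the exon time labels were swapped, exon changes would turn sign at the same size.

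Levels are log2 signals, a change is a difference of mean log2 signals, and a call is an adjusted p under 0.05 from limma, fitted to all features of a design with Benjamini-Hochberg adjustment. A gene is given by its brightest single-gene feature, and levels are not compared between genes or designs. The labels do not state whether the 3 arrays of a group hold RNA of separate cultures, and p-values therefore reflect array-to-array spread that can be purely technical. A permutation test of 3 arrays against 3 cannot go below p = 0.1. Arrays within a group correlated at 0.997 to 0.998 on the 430 design and 0.985 to 0.989 on the exon design, and no array stood apart.

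On the 430 arrays most of these genes were lower at 24 h. Of the 38 measured, 23 were called lower (60.5%), 7 higher (18.4%) and 8 were not called, while 52.1% of all 18193 genes were called, 26.1% lower and 26.0% higher. The median change was -0.59, against 0.06 for all genes, and changes ran from -4.45 for Egln3 to 1.91 for Ndrg1. With a log2 change of at least 1 also required, 8 were lower and 3 higher, where 5.41% and 4.34% of all genes met that rule. The 0 h and 24 h values did not overlap for 30 of the 38 members, against 61.0% of all genes.

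The exon design gave the reverse picture, with most called members higher under the 24 h label. Of the 35 on that design, 20 were called higher (57.1%), 2 lower (5.71%) and 13 were not called, while 30.1% of all 14807 genes were called, 19.3% higher and 10.8% lower. The median change was 0.58, against 0.01 for all genes, and 7 members were higher and 1 lower by at least 1 on the log2 scale, where 4.92% and 3.74% of all genes were. Values did not overlap for 25 members, against 47.2% of all genes.

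**Figure D1:**
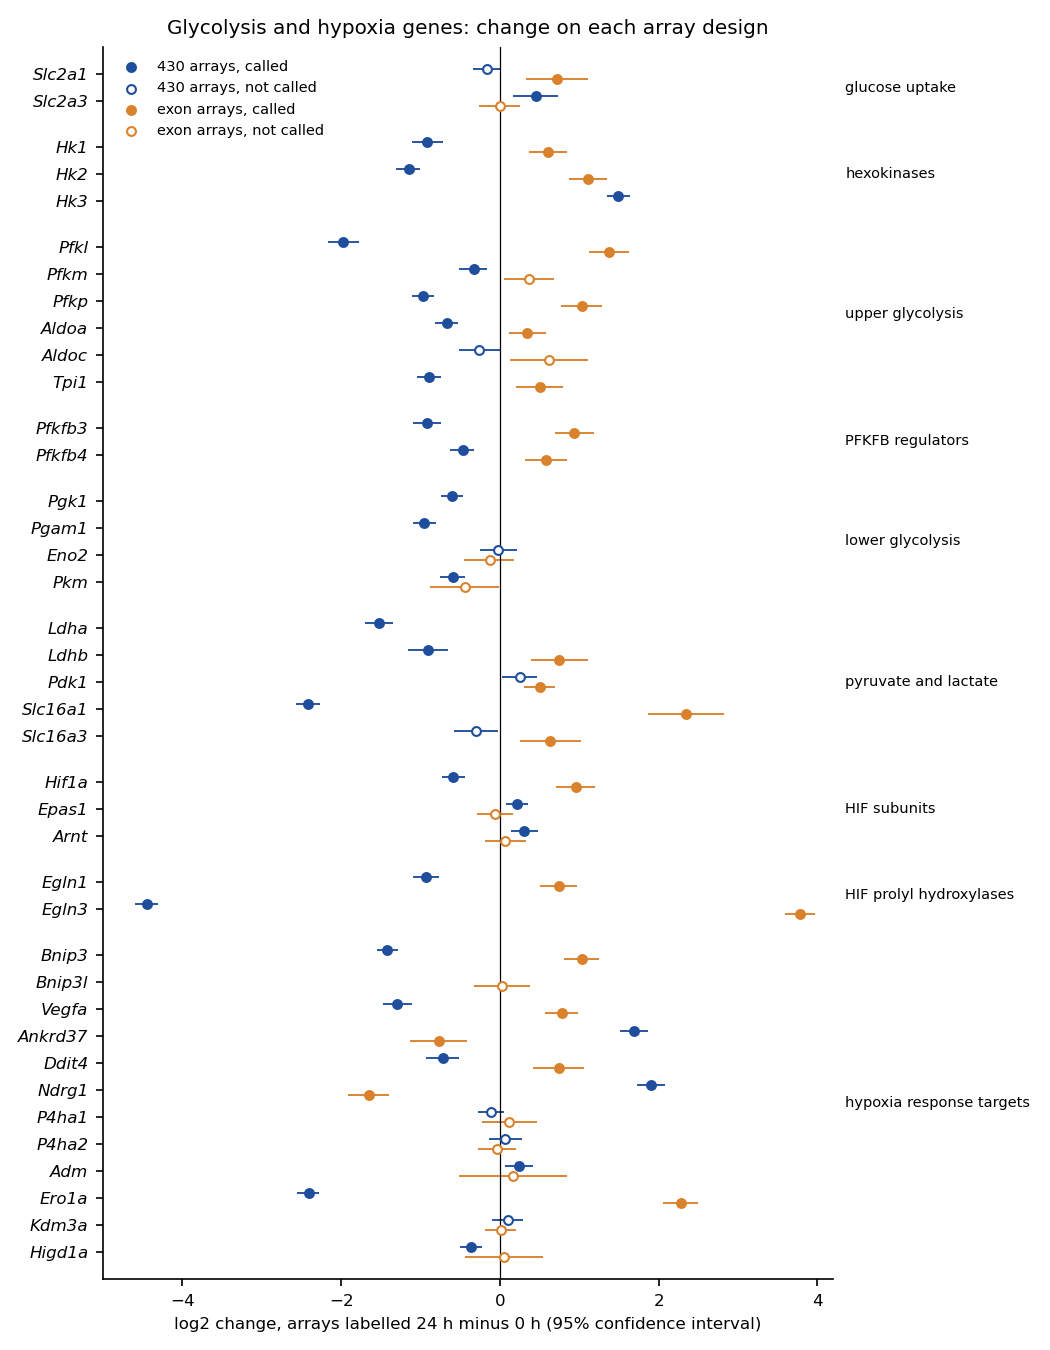
Log2 change (arrays labelled 24 h minus 0 h) with its 95% confidence interval for each measured member, grouped by role, on the 430 arrays (blue) and the exon arrays (orange). Filled points were called at an adjusted p under 0.05. Egln3 lies farthest from 0 on both designs, at -4.45 and 3.78, and Ndrg1 and Ankrd37 run against most members on both.

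The 2 designs set side by side gave nearly mirrored changes for this set. Of the 34 members on both, 17 were lower on the 430 arrays and higher on the exon arrays (50.0%, against 18.3% of the genes on both), 2 were higher and then lower (9.54% of genes), and 0 were called in the same direction on both (0.427% of genes). Called on both designs were 19 members, against 28.2% of all genes. The groups of these 19 did not overlap on either design, a share that was not counted for all genes. Another 7 were called on the 430 arrays only and 3 on the exon arrays only, shares not counted for all genes, and 5 on neither (39.8% of genes). Across the 34 members the changes correlated at r = -0.941 and rho = -0.85, with all points sharing the same 12 arrays.

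**Figure D2:**
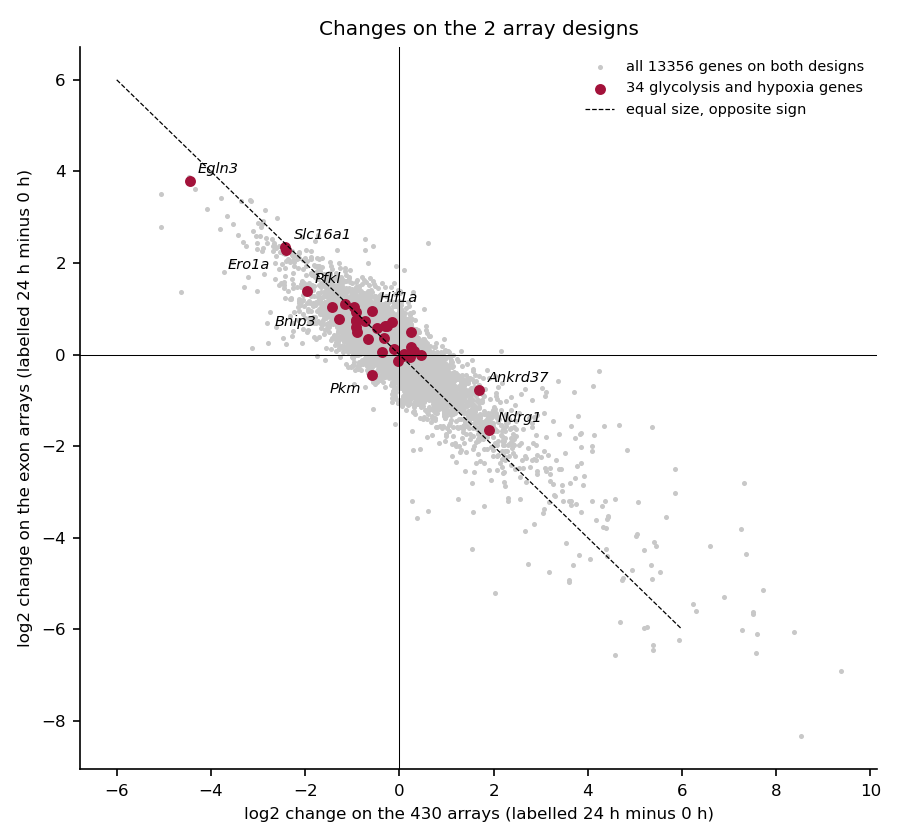
Log2 change on the exon arrays (vertical axis) against log2 change on the 430 arrays (horizontal axis), each as labelled 24 h minus 0 h. Grey points are the 13356 genes on both designs, red points the 34 members, and the dashed line marks equal size with opposite sign. Egln3, Slc16a1 and Ero1a lie near its upper left end, and Ndrg1 lies near it on the other side. Pkm lies below 0 on both axes, but it was not called on the exon arrays, where its level was near the median feature. Whether its exon cluster measures the Pkm transcript was not tested.

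Promoter sequences are shown for 6 members, because HIF binds a short core in the promoters of its targets: the 3 with the largest falls on the 430 arrays (Egln3, Slc16a1 and Ero1a), the lactate dehydrogenase gene Ldha, and the 2 members with promoters here that were higher by the largest amount (Ankrd37 and Hk3). Each is the RefSeq window of GRCm38.p6 from 250 bases before to 50 bases after the annotated transcript start, written 5′ to 3′ on the gene's strand, at chr12:54203825-54204124, minus strand (Egln3), chr3:104638414-104638713, plus strand (Slc16a1), chr14:45318523-45318822, minus strand (Ero1a), chr7:46845554-46845853, plus strand (Ldha, the first of 2 windows), chr8:45999801-46000100, minus strand (Ankrd37) and chr13:55021336-55021635, minus strand (Hk3). Capitals mark the core ACGTG or GCGTG on either strand (CACGT or CACGC when it lies on the other strand), and a run CACGTG holds the ACGTG core on both strands.
Egln3: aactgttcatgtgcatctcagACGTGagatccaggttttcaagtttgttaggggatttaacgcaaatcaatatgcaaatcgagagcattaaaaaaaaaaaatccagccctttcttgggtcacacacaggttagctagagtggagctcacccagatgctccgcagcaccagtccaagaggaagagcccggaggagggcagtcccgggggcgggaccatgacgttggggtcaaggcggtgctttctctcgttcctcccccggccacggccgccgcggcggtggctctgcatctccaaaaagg
Slc16a1: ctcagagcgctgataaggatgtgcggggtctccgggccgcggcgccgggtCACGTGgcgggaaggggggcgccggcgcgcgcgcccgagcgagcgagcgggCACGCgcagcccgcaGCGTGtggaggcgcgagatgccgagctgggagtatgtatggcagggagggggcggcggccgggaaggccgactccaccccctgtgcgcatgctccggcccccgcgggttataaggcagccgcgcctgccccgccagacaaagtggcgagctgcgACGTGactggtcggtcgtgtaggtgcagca
Ero1a: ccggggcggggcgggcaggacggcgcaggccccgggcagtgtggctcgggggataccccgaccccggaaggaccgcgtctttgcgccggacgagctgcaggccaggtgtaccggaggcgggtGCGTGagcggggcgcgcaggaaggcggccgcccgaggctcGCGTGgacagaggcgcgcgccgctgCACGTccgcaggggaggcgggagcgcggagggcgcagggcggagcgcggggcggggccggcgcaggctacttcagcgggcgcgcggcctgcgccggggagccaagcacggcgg
Ldha: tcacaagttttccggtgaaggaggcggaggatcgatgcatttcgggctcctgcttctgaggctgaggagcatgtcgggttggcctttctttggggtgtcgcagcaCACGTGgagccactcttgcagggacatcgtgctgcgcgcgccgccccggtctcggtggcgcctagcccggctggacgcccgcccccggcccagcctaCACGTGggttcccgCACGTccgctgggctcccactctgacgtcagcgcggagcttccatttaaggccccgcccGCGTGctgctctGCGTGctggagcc
Ankrd37: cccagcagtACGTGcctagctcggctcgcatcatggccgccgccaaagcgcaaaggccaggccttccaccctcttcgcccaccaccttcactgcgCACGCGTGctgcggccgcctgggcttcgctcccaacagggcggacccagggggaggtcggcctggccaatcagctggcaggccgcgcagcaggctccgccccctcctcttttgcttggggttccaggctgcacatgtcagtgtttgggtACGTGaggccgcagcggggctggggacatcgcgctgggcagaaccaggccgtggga
Hk3: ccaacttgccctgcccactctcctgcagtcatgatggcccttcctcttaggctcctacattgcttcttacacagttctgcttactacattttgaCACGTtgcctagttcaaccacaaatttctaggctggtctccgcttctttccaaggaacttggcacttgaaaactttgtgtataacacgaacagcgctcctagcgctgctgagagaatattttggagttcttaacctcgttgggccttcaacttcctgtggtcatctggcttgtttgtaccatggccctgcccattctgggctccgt

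The Ldha window held 5 ACGTG matches, 4 of them from 2 CACGTG runs, and the Slc16a1 window held 3, with 1 CACGTG run. Ankrd37, which was higher on the 430 arrays, held 2 ACGTG and 2 GCGTG matches, so a core was present in genes that moved in either direction. RefSeq windows were matched for 38 of the 42 members, 54 windows in all; Bnip3l, Epas1, Ndrg1 and Slc2a3 were not matched. ACGTG was in 29 of the 54 windows (53.7%) against 19.6% of all 32851 windows, GCGTG in 59.3% against 32.4%, and CACGTG in 11.1% against 7.15%. Member windows also had a higher GC content, at a median of 62.2% against 52.7%, and the part of base composition in these shares was not tested. Among genes lower on the 430 arrays, 21 of 33 windows (63.6%) held ACGTG, among genes higher 2 of 4 windows (50.0%), and among genes not called 5 of 12 (41.7%). A match describes letters only.

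**Figure D3:**
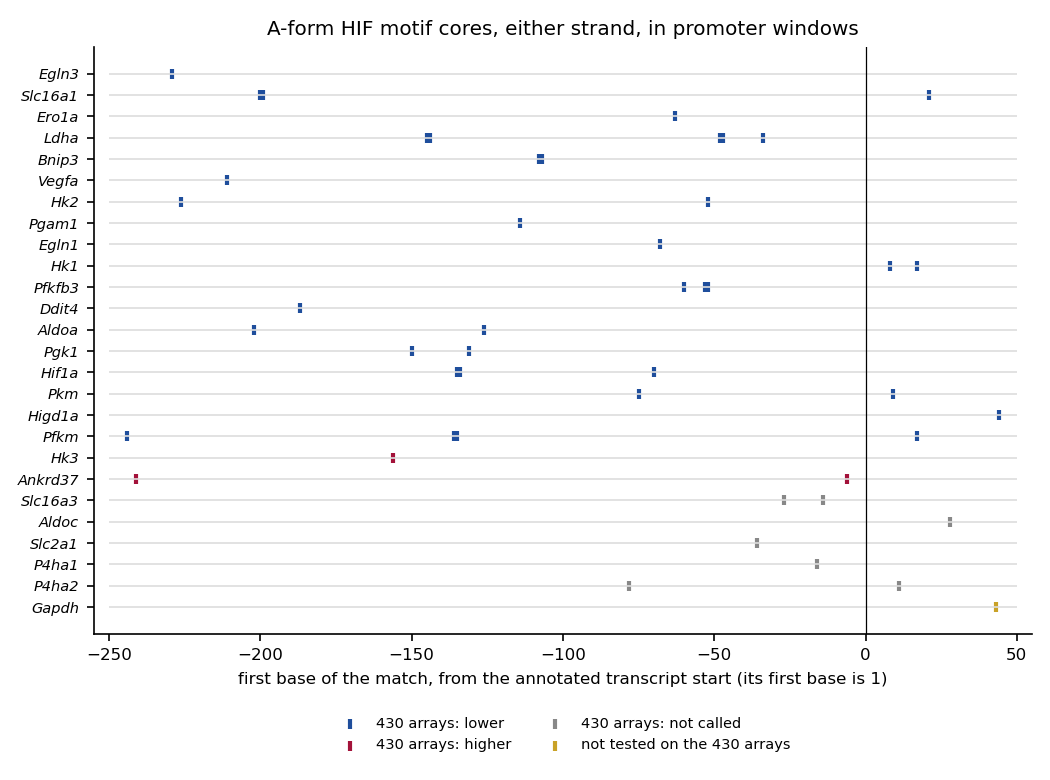
First base of each ACGTG match on either strand (marks), by distance from the annotated transcript start (horizontal axis, in bases), for the 26 members with a match in any window; matches of several windows of a gene share its line, each counted from its own start. Colours give the call on the 430 arrays; the matches of the 18 genes called lower lie both before and after the start, and so do those of the 5 not called.

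Glucose enters these cells through facilitative transporters, and the brightest probe sets of both members of this group changed by less than 0.5 on the 430 arrays. Slc2a1, the basal glucose transporter, went from 11.16 ± 0.0663 to 10.99 ± 0.111 (SD, n = 3) on the 430 arrays and was not called (change -0.16 ± 0.0775 (SE), adjusted p = 0.118), although its other 2 probe sets were lower by 0.35 and 0.92. Without 24 h array 2 the brightest set was called lower too (adjusted p = 0.0431). The same held with array medians removed (adjusted p = 0.0468) and with a variance trend (0.0259). The mean of all Slc2a1 probe sets was lower by 0.48 (adjusted p = 0.000153), so the missing call depends on the probe set and setting. Slc2a1 was higher on the exon arrays, by 0.72 (adjusted p = 0.0206), a call lost without any one of the arrays labelled 0 h (adjusted p up to 0.0701). Slc2a3, a high-affinity transporter, lay below the median feature of both designs. It was called higher by 0.45 on the 430 arrays (adjusted p = 0.0151, and 0.0526 without 0 h array 1), and its exon change was -0.00 (adjusted p = 0.985). The other 430 probe sets of Slc2a3 changed by 0.16, 0.09 and 0.17 and were not called.

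The hexokinases, which phosphorylate glucose on entry, moved in different directions. Hk1, the widely expressed form, read 10.79, 10.62 and 10.87 on the 0 h arrays and 9.92, 9.73 and 9.88 on the 24 h arrays of the 430 design. On the exon design it read 8.45, 8.25 and 8.47 on the 0 h arrays and 9.07, 8.94 and 8.99 on the 24 h arrays. The groups were apart on both designs, lower at 24 h on the 430 arrays (change -0.92 ± 0.0858 (SE), adjusted p = 2.94e-05) and higher on the exon arrays (0.61 ± 0.096 (SE), adjusted p = 0.00604). Hk2, an inducible form and HIF target, read 10.37, 10.47 and 10.47 on the 0 h arrays and 9.21, 9.32 and 9.33 on the 24 h arrays of the 430 design. Its exon values were 7.61, 7.34 and 7.53 on the 0 h arrays and 8.65, 8.60 and 8.57 on the 24 h arrays. Every 24 h value was below every 0 h value on the 430 arrays, 2.22-fold lower (change -1.15 ± 0.068 (SE), adjusted p = 1.69e-06), and above on the exon arrays (1.11 ± 0.0985 (SE), adjusted p = 0.000762). Hk3, a hexokinase abundant in myeloid cells, was on the 430 arrays only and read 10.58, 10.62 and 10.61 on the 0 h arrays and 12.16, 12.04 and 12.08 on the 24 h arrays. All 24 h arrays were higher, by 2.81-fold (change 1.49 ± 0.0636 (SE), adjusted p = 2.35e-07), and its other probe set was higher by 1.22. Hk3 was thus the only hexokinase called higher on the 430 arrays.

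Enzymes of the first stage of glycolysis, which take glucose phosphate to triose phosphate, were lower in 5 of 6 cases on the 430 arrays (26.1% of all genes) and higher in 4 of 6 on the exon arrays (19.3% of all genes). Pfkl, the liver-type subunit of phosphofructokinase, which sets the pace of glycolysis, read 10.99, 10.95 and 11.19 on the 0 h arrays and 9.10, 8.97 and 9.14 on the 24 h arrays of the 430 design. The exon arrays gave Pfkl 8.92, 8.66 and 8.81 on the 0 h arrays and 10.26, 10.15 and 10.10 on the 24 h arrays. The groups did not overlap on either design, and Pfkl was 3.93-fold lower on the 430 arrays (change -1.97 ± 0.0835 (SE), adjusted p = 2.26e-07) and 2.59-fold higher on the exon arrays (1.38 ± 0.103 (SE), adjusted p = 0.000448). Pfkp, the platelet-type subunit, read 11.41, 11.40 and 11.31 on the 0 h arrays and 10.38, 10.40 and 10.42 on the 24 h arrays of the 430 design. Pfkp exon values were 9.31, 9.23 and 9.35 on the 0 h arrays and 10.50, 10.30 and 10.18 on the 24 h arrays. Its changes were of similar size and opposite sign (-0.97 ± 0.0625 (SE), adjusted p = 2.81e-06 and 1.03 ± 0.108 (SE), adjusted p = 0.00134), with no overlap. Pfkm, the muscle-type subunit, changed least of the 3, by -0.33 on the 430 arrays (adjusted p = 0.00688, but -0.19 and 0.0674 with quantile normalization) and 0.37 on the exon arrays, where it was not called (adjusted p = 0.0972).

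Aldolase and triose phosphate isomerase complete this stage. Aldoa, the main aldolase, and Tpi1, which interconverts the triose phosphates, were lower on the 430 arrays by 0.67 and 0.89 (adjusted p = 2.62e-05 and 6.7e-06). Their exon changes were 0.34 and 0.50 (adjusted p = 0.0473 and 0.0296). The exon call of Aldoa was lost without any one of the 6 exon arrays (adjusted p from 0.0806 to 0.125), and that of Tpi1 without 0 h array 1 or 2 or 24 h array 1 or 2 (up to 0.0969). Aldoc was not called on either design (-0.26 and 0.62, adjusted p = 0.0922 and 0.0728), but was called lower on the 430 arrays without 0 h array 2 (0.0147).

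Pfkfb3 and Pfkfb4, members that encode bifunctional enzymes making and removing the sugar phosphate that activates phosphofructokinase, were called on both designs. Pfkfb2 of the same family, no member and named after its values were seen, was called on neither by its brightest feature (0.17 and 0.11, adjusted p = 0.128 and 0.583). Another of its 430 probe sets was lower by 0.59 (adjusted p = 0.004) and another higher by 0.50 (0.000732), both below the median feature. Pfkfb3, the form induced by hypoxia, read 8.34, 8.11 and 8.13 on the 0 h arrays and 7.22, 7.27 and 7.31 on the 24 h arrays of the 430 design. Its exon values were 7.16, 7.15 and 7.38 on the 0 h arrays and 8.24, 8.14 and 8.13 on the 24 h arrays. Pfkfb3 was lower on every 24 h array of the 430 design (change -0.92 ± 0.0787 (SE), adjusted p = 1.61e-05) and higher on every one of the exon design (0.94 ± 0.0971 (SE), adjusted p = 0.00127). Pfkfb4 changed by -0.47 and 0.58 (adjusted p = 0.00048 and 0.0114).

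**Figure D4:**
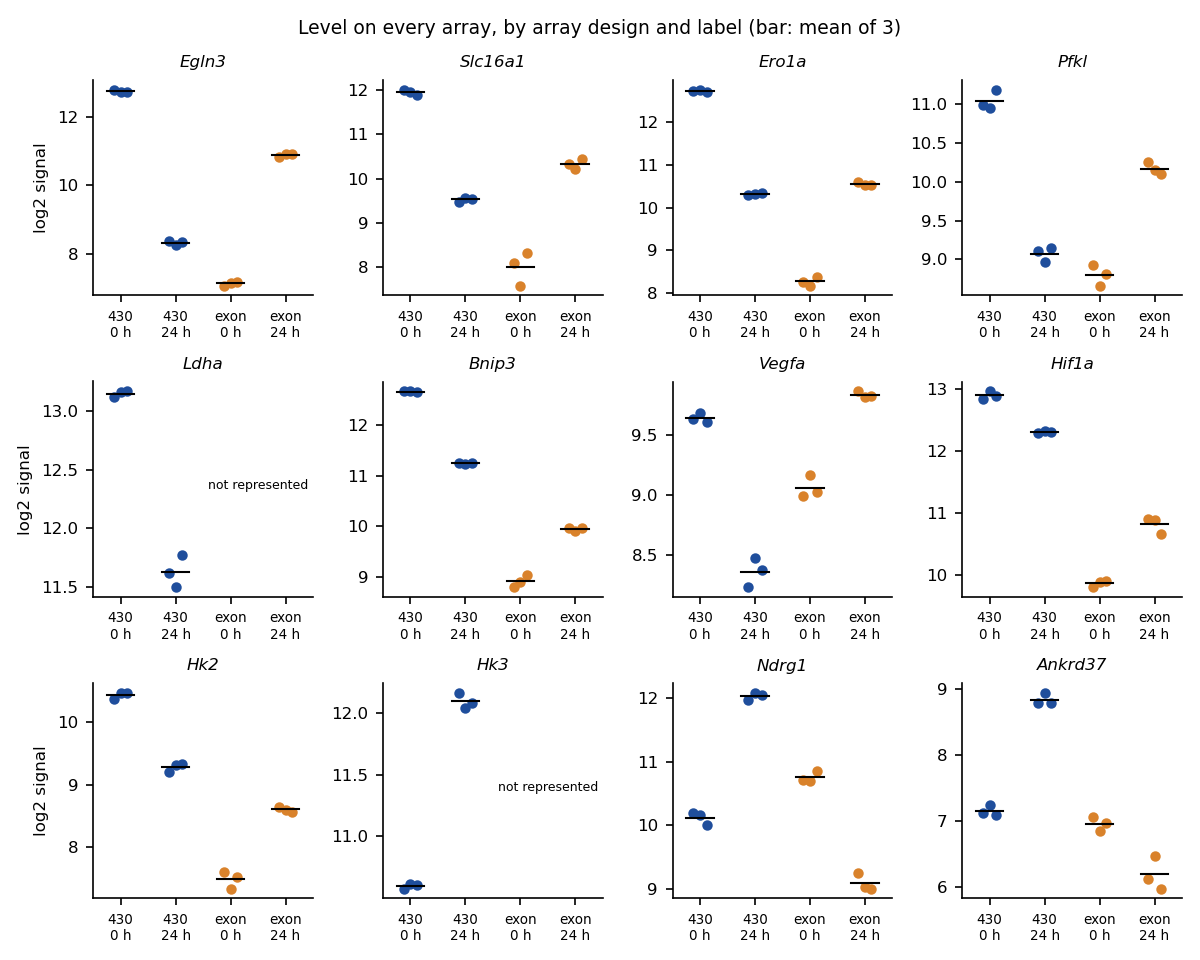
Log2 signal of 12 members on every array (points), by design and time label, with the mean of the 3 arrays as a bar; each panel has its own vertical axis, which does not start at 0. Egln3, Slc16a1, Ero1a, Pfkl, Bnip3, Vegfa, Hif1a and Hk2 are lower at 24 h on the 430 arrays and higher on the exon arrays, while Ndrg1 and Ankrd37 do the reverse; Ldha and Hk3 have no feature of their own on the exon design.

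In the second stage of glycolysis, where ATP is made, 3 of the 4 members on the 430 arrays were lower (26.1% of all genes were), and neither of the 2 members on the exon arrays was called. Pgam1, a phosphoglycerate mutase, was lower by 1.94-fold on the 430 arrays (change -0.96 ± 0.0631 (SE), adjusted p = 3.27e-06). Pgk1, phosphoglycerate kinase, went from 14.23 ± 0.00404 to 13.63 ± 0.053 (SD, n = 3), a change of -0.60 ± 0.0619 (SE), adjusted p = 5.42e-05. Pkm, pyruvate kinase of most dividing cells, went from 13.42 ± 0.0426 to 12.83 ± 0.0811 on the 430 arrays (change -0.59 ± 0.0686 (SE), adjusted p = 0.000116). Pkm exon values were 5.73, 5.56 and 6.19 on the 0 h arrays and 5.53, 5.37 and 5.26 on the 24 h arrays. They lay near the design's median feature of 5.40, and the change was not called (-0.44 ± 0.179 (SE), adjusted p = 0.139). The number of this exon cluster lay between those of members on chromosomes 4 and 6 (Slc2a1 and Hk2). It was not beside those of Pfkfb4 and Higd1a, which share chromosome 9 with Pkm. Whether the cluster annotated to Pkm measures the Pkm transcript itself was not tested. Eno2, an enolase typical of neurons, lay below the median feature of both designs and was called on neither (-0.02 and -0.13, adjusted p = 0.911 and 0.548).

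Gapdh, the glyceraldehyde phosphate dehydrogenase often used as a reference gene, was on the 430 arrays only as 3 of the design's control probe sets, which the main test left out; they were tested as an addition after the data were seen. The set from the 3′ end of the transcript read 14.52, 14.51 and 14.53 on the 0 h arrays and 14.15, 14.09 and 14.15 on the 24 h arrays. The 24 h values were lower with no overlap, and the 3 sets changed by -0.39, -0.33 and -0.40 (limma adjusted p = 0.000645, 0.00167 and 0.000644 over 45101 probe sets). Many glycolytic genes have near-identical processed copies in the mouse genome, and whether any probes also detect those was not tested.

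Genes that handle pyruvate and lactate held the second largest change of the set. Slc16a1, a lactate and pyruvate transporter, read 12.01, 11.95 and 11.90 on the 0 h arrays and 9.48, 9.57 and 9.54 on the 24 h arrays of the 430 design. On the exon design it read 8.09, 7.58 and 8.31 on the 0 h arrays and 10.34, 10.22 and 10.44 on the 24 h arrays, where the 0 h arrays were the more scattered group. The groups lay far apart on both, 5.36-fold lower on the 430 arrays (change -2.42 ± 0.0647 (SE), adjusted p = 1.64e-08) and 5.06-fold higher on the exon arrays (2.34 ± 0.196 (SE), adjusted p = 0.000647). Ldha, the lactate dehydrogenase subunit that favours lactate production and a HIF target, read 13.12, 13.16 and 13.17 on the 0 h arrays and 11.62, 11.50 and 11.77 on the 24 h arrays of the 430 design. Every 24 h array was lower, by 2.86-fold in the mean (change -1.52 ± 0.0786 (SE), adjusted p = 7.68e-07).

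Ldhb, the subunit typical of oxidative tissues, read 10.04, 9.73 and 9.75 on the 0 h arrays and 8.92, 8.76 and 9.10 on the 24 h arrays of the 430 design. Ldhb exon values were 7.33, 7.12 and 7.12 on the 0 h arrays and 7.73, 7.89 and 8.21 on the 24 h arrays. The groups did not overlap on either design (changes -0.91 ± 0.112 (SE), adjusted p = 0.000168 and 0.75 ± 0.146 (SE), adjusted p = 0.0131). All 4 Ldhb probe sets of the 430 design were lower, and the exon call was lost without 0 h array 2 (adjusted p = 0.0516). A second exon cluster annotated to Ldhb changed by -0.41 (adjusted p = 0.415). Its number lay between those of members on chromosomes 17 and 2 (Vegfa and Pdk1). It was not beside those of Hk2 and Tpi1, which share chromosome 6 with Ldhb. Whether this second cluster measures the Ldhb transcript was not tested. With the mean of both clusters the exon change of Ldhb was 0.17 and was not called (adjusted p = 0.595). Slc16a3, the lactate exporter of glycolytic cells, lay below the median of the 430 design and was not called there (-0.30 ± 0.124 (SE), adjusted p = 0.0789, but 0.0106 without 0 h array 2). It was higher by 0.63 on the exon arrays (adjusted p = 0.0326), a call lost without 0 h array 1 or 3 or 24 h array 1 or 3 (up to 0.0975). Pdk1, the kinase that shuts pyruvate dehydrogenase, was not called on the 430 arrays (0.25 ± 0.0947 (SE), adjusted p = 0.0591, but 0.0298 without 0 h array 2 and 0.0439 without 24 h array 3), where 2 of its other probe sets were lower by 0.32 and 0.46. Pdk1 was called higher on the exon arrays (0.50 ± 0.0784 (SE), adjusted p = 0.00585).

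Of the HIF subunits, Hif1a was called on both designs, while the changes of Epas1 and Arnt ran from -0.06 to 0.31. Hif1a, the oxygen-regulated alpha subunit, read 12.84, 12.96 and 12.88 on the 0 h arrays and 12.29, 12.32 and 12.31 on the 24 h arrays of the 430 design. Its exon values were 9.81, 9.89 and 9.91 on the 0 h arrays and 10.91, 10.89 and 10.66 on the 24 h arrays. The groups were apart on both designs, 1.5-fold lower on the 430 arrays (change -0.59 ± 0.0637 (SE), adjusted p = 7.49e-05) and 1.94-fold higher on the exon arrays (0.96 ± 0.1 (SE), adjusted p = 0.00136). All 4 Hif1a probe sets were lower, by 0.36 to 1.57. Epas1, the other alpha subunit, was higher by 0.22 on the 430 arrays (adjusted p = 0.0191), a call lost without 0 h array 2 or 3 or 24 h array 3 (up to 0.0592), and its exon change was -0.06 (adjusted p = 0.725). Arnt, the shared beta subunit, had 430 probe sets with calls of either sign: 3 were higher by 0.28 to 0.36, 1 was lower by 0.29 and 1 was not called. With the mean of its probe sets Arnt changed by 0.11 and was not called (adjusted p = 0.142). The exon change of Arnt was 0.07 (adjusted p = 0.725). These are RNA levels, and the alpha subunits are controlled mainly through their protein.

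Egln1 and Egln3, members that encode prolyl hydroxylases marking HIF for destruction and are HIF targets themselves, were called on both designs. Egln2, the related hydroxylase, no member and named after its values were seen, changed by -0.22 on the 430 arrays (adjusted p = 0.0372) and by 0.04 on the exon arrays (adjusted p = 0.857). Egln3 held the largest change of the set and read 12.81, 12.75 and 12.74 on the 0 h arrays and 8.37, 8.25 and 8.35 on the 24 h arrays of the 430 design. The exon arrays gave Egln3 7.06, 7.13 and 7.17 on the 0 h arrays and 10.85, 10.92 and 10.93 on the 24 h arrays. Nothing overlapped: Egln3 was 21.8-fold lower on the 430 arrays (change -4.45 ± 0.0659 (SE), adjusted p = 7.8e-10) and 13.7-fold higher on the exon arrays (3.78 ± 0.0782 (SE), adjusted p = 6.28e-06). Its second 430 probe set was lower by 5.02. Egln1, the main oxygen sensor of the family, read 10.48, 10.63 and 10.52 on the 0 h arrays and 9.68, 9.54 and 9.62 on the 24 h arrays of the 430 design. Egln1 exon values were 9.31, 9.23 and 9.20 on the 0 h arrays and 9.84, 10.07 and 10.05 on the 24 h arrays. The change was smaller than that of Egln3 and again without overlap (430 -0.93 ± 0.0714 (SE), adjusted p = 8.22e-06; exon 0.74 ± 0.096 (SE), adjusted p = 0.00289).

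Of the hypoxia response targets outside glycolysis, 5 of 11 were lower on the 430 arrays (45.5%, against 26.1% of all genes) and 3 higher (27.3%, near the 26.0% of all genes). On the exon design 4 of 12 were higher (33.3%, against 19.3%) and 2 lower (16.7%, against 10.8%). Ero1a (Ero1l in the member list), an oxidase of disulfide bond formation in the endoplasmic reticulum, read 12.74, 12.76 and 12.70 on the 0 h arrays and 10.30, 10.32 and 10.35 on the 24 h arrays of the 430 design. The exon arrays gave Ero1a 8.27, 8.18 and 8.39 on the 0 h arrays and 10.60, 10.53 and 10.54 on the 24 h arrays. It was 5.33-fold lower on the 430 arrays (change -2.41 ± 0.0602 (SE), adjusted p = 1.18e-08) and 4.85-fold higher on the exon arrays (2.28 ± 0.0892 (SE), adjusted p = 4.38e-05), with tight groups on both. Bnip3, a receptor for removal of mitochondria, read 12.67, 12.67 and 12.65 on the 0 h arrays and 11.26, 11.23 and 11.26 on the 24 h arrays of the 430 design. Its exon values were 8.80, 8.89 and 9.04 on the 0 h arrays and 9.96, 9.90 and 9.96 on the 24 h arrays. Bnip3 was lower on every 24 h array of the 430 design (change -1.42 ± 0.0589 (SE), adjusted p = 2.03e-07) and higher on every one of the exon design (1.03 ± 0.0916 (SE), adjusted p = 0.000772). Its relative Bnip3l was on the exon arrays only, with a change of 0.03 (adjusted p = 0.924).

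Vegfa, the blood vessel growth factor, read 9.64, 9.69 and 9.61 on the 0 h arrays and 8.23, 8.47 and 8.37 on the 24 h arrays of the 430 design. Vegfa exon values were 8.99, 9.17 and 9.03 on the 0 h arrays and 9.87, 9.82 and 9.83 on the 24 h arrays. The groups did not overlap on either design (changes -1.29 ± 0.0769 (SE), adjusted p = 1.8e-06 and 0.78 ± 0.0849 (SE), adjusted p = 0.00157). Ddit4, a stress-induced inhibitor of the growth kinase complex mTORC1, read 10.77, 10.82 and 10.54 on the 0 h arrays and 9.93, 9.96 and 10.08 on the 24 h arrays of the 430 design. Its exon values were 7.83, 7.43 and 7.81 on the 0 h arrays and 8.45, 8.34 and 8.50 on the 24 h arrays. Ddit4 was lower at 24 h on the 430 arrays (-0.72 ± 0.09 (SE), adjusted p = 0.000184) and higher on the exon arrays (0.74 ± 0.132 (SE), adjusted p = 0.00938).

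Ndrg1 and Ankrd37 were the 2 members called higher on the 430 arrays and lower on the exon arrays. Ndrg1, a stress and differentiation gene induced by hypoxia, read 10.20, 10.17 and 10.00 on the 0 h arrays and 11.97, 12.08 and 12.05 on the 24 h arrays of the 430 design. Ndrg1 exon values were 10.72, 10.69 and 10.86 on the 0 h arrays and 9.26, 9.03 and 9.01 on the 24 h arrays. Every 24 h array was higher on the 430 design, by 3.75-fold (change 1.91 ± 0.0761 (SE), adjusted p = 1.64e-07), and lower on the exon design (-1.65 ± 0.105 (SE), adjusted p = 0.000263). All 5 Ndrg1 probe sets were called higher, by 1.23 to 1.91. Ankrd37, an ankyrin repeat gene and HIF target, read 7.13, 7.25 and 7.09 on the 0 h arrays and 8.80, 8.95 and 8.79 on the 24 h arrays of the 430 design. The exon values of Ankrd37 were 7.07, 6.86 and 6.97 on the 0 h arrays and 6.13, 6.47 and 5.98 on the 24 h arrays. Ankrd37 was 3.22-fold higher on the 430 arrays (change 1.69 ± 0.0759 (SE), adjusted p = 3.3e-07) and lower on the exon arrays (-0.77 ± 0.146 (SE), adjusted p = 0.0117), without overlap.

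The remaining targets changed little. Higd1a, a mitochondrial protein, was lower by 0.36 on the 430 arrays (adjusted p = 0.00138) with an exon change of 0.05 (adjusted p = 0.896). Adm, the peptide hormone adrenomedullin, lay below the median feature of both designs and was called higher by 0.24 on the 430 arrays (adjusted p = 0.028), a call lost without 0 h array 2 or 3 or 24 h array 2 or 3 (up to 0.0948). P4ha1 and P4ha2, subunits of collagen prolyl hydroxylase, and Kdm3a, a histone demethylase, were not called on either design, with changes from -0.11 to 0.12. The second probe set of P4ha1 was lower by 0.67 (adjusted p = 0.000265).

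Probe sets of a gene mostly agreed in direction on the 430 arrays. Of 25 members with several probe sets, 16 had all of them called in 1 direction, and Arnt alone had calls in both. The same shares were not counted over all genes with several probe sets, so these counts describe the members only. Sizes ran from -0.36 to -1.97 for Pfkl and from -0.80 to -2.42 for Slc16a1, whose smaller value came from a probe set below the design's median.

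**Figure D5:**
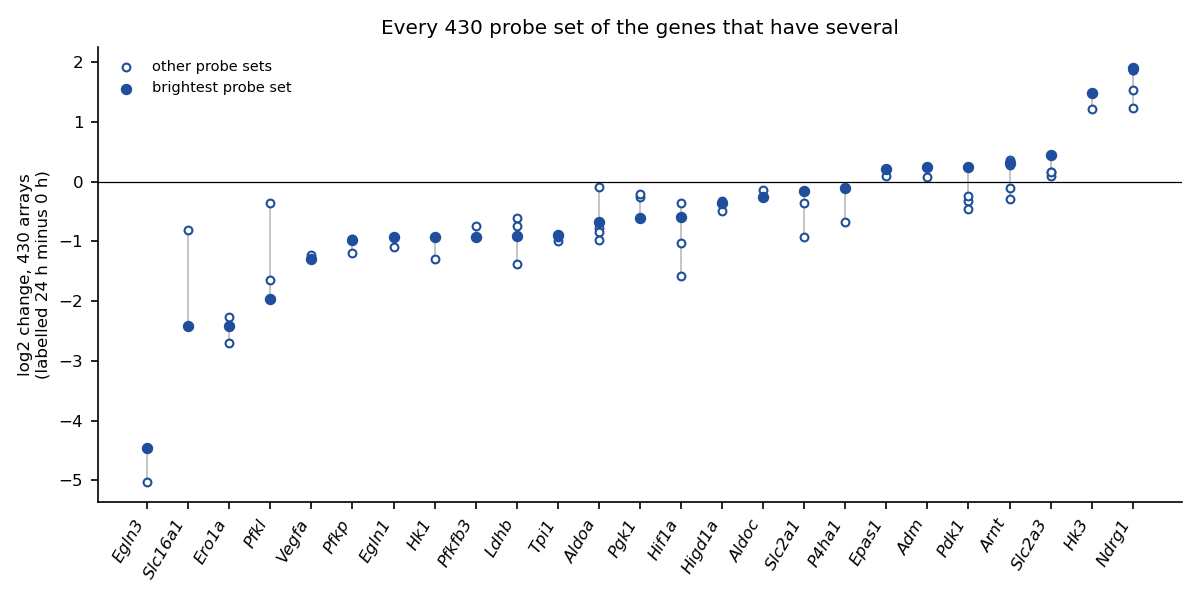
Log2 change on the 430 arrays (24 h minus 0 h, vertical axis) of every probe set of the 25 members that have several; filled points are the brightest probe set, which stands for the gene, and open points the others. The 2 Egln3 probe sets lie at -5.02 and -4.45, the 5 Ndrg1 probe sets all lie above 1, and those of Arnt and Pdk1 lie on both sides of 0.

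Whether the designs mirrored each other in size was tested by adding the 430 and exon changes in 1 limma model; the sum is 0 for changes of equal size and opposite sign. Of the 34 members, 12 had a sum that differed from 0 at an adjusted p under 0.05 (7 below 0 and 5 above), against 22.8% of all genes on both designs (10.3% below 0 and 12.6% above). The 6 largest sums were -1.03 for Pkm (adjusted p = 0.00126), 0.91 for Ankrd37 (0.00104), 0.75 for Pdk1 (0.000804), -0.67 for Egln3 (0.000342), -0.60 for Pfkl (0.00464) and 0.56 for Slc2a1 (0.0278). For Egln3, Pfkl and Ankrd37 the change on the 430 arrays was the larger one, while Slc2a1 and Pdk1, by their brightest probe sets, were called on the exon arrays only. The other 430 probe sets of Pdk1 changed by -0.32, -0.24 and -0.46. With the mean of its probe sets Pdk1 changed by -0.19 on the 430 arrays (adjusted p = 0.0365), so its sum depends on the probe set. Pkm was called on the 430 arrays only. Its exon cluster lay near that design's median feature and was numbered apart from members on the same chromosome. Whether that cluster measures the Pkm transcript was not tested, so the sum may not describe Pkm. With exon values scaled by 1.149, to the spread of the 430 changes, the count was 6. Without 430 0 h array 3 or 430 24 h array 2 it was 7, and array designs differ in dynamic range, so the sums compare designs and not conditions.

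Other genes of these pathways came from a list of 88. On the 430 arrays 34 of 79 measured were lower (43.0%, against 26.1% of all genes) and 14 higher (17.7%, against 26.0%), with a median change of -0.09. The exon design had 26 of 71 higher (36.6%, against 19.3% of all genes) and 10 lower (14.1%, against 10.8%), with a median of 0.10. The pentose phosphate pathway, which branches from glycolysis to make NADPH and ribose, stood at 6 of 7 lower on the 430 arrays and 5 of 6 higher on the exon arrays, with median changes of -0.96 and 0.92; Tkt, its transketolase, named after its values were seen, was the exception on both (0.20 and -0.44). Among 8 glycogen genes on the 430 arrays, 5 were called lower (62.5%) and 2 higher, the latter a share near that of all genes. Among 27 other hypoxia response genes 14 were lower (51.9%) and 4 higher (14.8%).

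The lowest changes among these other genes on the 430 arrays were those of Car9, a carbonic anhydrase induced by HIF (-3.02, adjusted p = 1.34e-07), Angptl4, a lipase inhibitor (-2.46, adjusted p = 3.01e-07), and Fbp1, a gluconeogenic phosphatase (-2.32, adjusted p = 1.91e-07). They were followed by the mitochondrial carboxykinase Pck2 (-1.95), the adenylate kinase Ak4 (-1.81) and the collagen lysyl hydroxylase Plod1 (-1.60). On the exon arrays these 6 genes were called higher, by 2.44, 1.45, 1.21, 0.95, 1.96 and 0.95 in that order. The highest were Pdk3, a pyruvate dehydrogenase kinase (1.53, adjusted p = 1.46e-07), Pygb, a glycogen phosphorylase (1.49, adjusted p = 3.6e-07), the heme oxygenase Hmox1 (1.25) and Cited2, which competes with HIF for its coactivator (1.10). All 4 were called lower on the exon arrays, with changes of -1.24, -1.49, -1.59 and -0.81. Nrn1 (0.57) and Ugp2 (0.56) came next on the 430 arrays and were not called on the exon arrays.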

How the data were processed

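RNA was measured on 12 Affymetrix arrays, 6 of each design with 3 per time label. The authors deposited log2 signals, 1 table per design, made with Affymetrix Expression Console per the submitters' processing notes, which name build mm8 for the exon arrays. The way probes were summarized was not given in the sources used here. Per the labels' protocols, sense-strand DNA was labelled from 300 ng of RNA for the 430 arrays and from 1.5 µg after ribosomal RNA reduction for the exon arrays. Such labelling is unusual for the 430 design, and whether it was used there could not be checked. Arrays have no read depth; precision is set by their number. Detection calls were not applied, and folds measured against a dim group can come out too small.

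Each table was tested on its own, because the designs were normalized separately, with two-sided moderated tests (limma 3.58.1, lmFit then eBayes, R 4.3.3), without covariates, over 45037 probe sets of the 430 design (64 control probe sets left out) and 23238 exon transcript clusters. The fits were tested on simulated data. Gene names came from the platform annotation, updated through Entrez identifiers to RefSeq (GRCm38.p6). Features with 1 symbol numbered 34945 and 14939, of which 34741 and 14884 matched; features with several symbols numbered 932 and 989, those without a symbol here 9160 and 7310, and neither was named. Designs were joined in 1 limma model over 13356 genes.

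The members, lists and rules for naming genes were chosen with earlier results of these data known. Members called on both designs without overlap were given array by array, up to the 16 with the largest mean size of change, with Hif1a, Egln1, Ldha, Ldhb, Hk1, Hk2, Hk3 and Vegfa added; of the other pathway genes, the 6 highest and 6 lowest on the 430 arrays were named, and of the sums over designs the 6 largest. Same-numbered 0 h and 24 h arrays did not deviate together (correlations of deviations from -0.055 to 0.132 on the 430 arrays and -0.052 to 0.009 on the exon arrays), so the numbers were not taken as pairs. The alternatives tried were array medians removed, quantile normalization, dim features left out, a variance trend, a replicate block, single arrays left out, a required log2 change of 1, gene means over all features, and rescaled exon values. The Gapdh control probe sets and the difference between designs as labelled were added after the data were seen.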

Additional observations from a re-analysis of the deposited data

Results flagged for a closer look

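The change on the 430 arrays and the change on the exon arrays, both as labelled, were compared in a limma model over all 12 arrays. They differed for 25 of the 34 members on both designs (430 change minus exon change, adjusted p under 0.05 over 13356 genes), against 58.0% of all genes. The difference was below 0 for 21 members. It was -8.23 for Egln3, -4.76 for Slc16a1, -4.69 for Ero1a, -3.35 for Pfkl, -2.45 for Bnip3, -2.26 for Hk2, -2.07 for Vegfa and -2.0 for Pfkp. It was -1.86 for Pfkfb3, -1.67 for Egln1, -1.66 for Ldhb, -1.54 for Hif1a, -1.52 for Hk1, -1.46 for Ddit4, -1.38 for Tpi1, -1.06 for Pfkfb4 and -1.02 for Aldoa. The smallest of these were -0.93 for Slc16a3, -0.89 for Slc2a1, -0.88 for Aldoc and -0.70 for Pfkm. It was above 0 for 4 members, at 3.56 for Ndrg1, 2.46 for Ankrd37, 0.45 for Slc2a3 and 0.28 for Epas1.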

How the results depend on the processing

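On the 430 arrays the counts of 7 members higher and 23 lower became 4 and 26 when features were averaged per gene and 5 and 26 with array medians removed. A log2 change of at least 1 left 3 higher and 8 lower members on the 430 arrays, 7 higher and 1 lower on the exon arrays, and 4 and 17, and 10 and 4, of the other pathway genes; this setting is stricter by construction. The 12 members whose changes did not mirror each other became 6 with exon values scaled by 1.149, and 7 to 13 with 1 array left out. Leaving out 1 array gave 5 to 7 members higher and 23 to 25 lower on the 430 arrays; the exon arrays had 16 to 18 higher and 2 lower. For the other pathway genes it gave 10 to 12 higher and 31 to 33 lower, and 22 to 27 higher and 8 to 10 lower. Of the called members, 27 of 30 on the 430 arrays kept their call in every such fit, and 17 of 22 on the exon design did. Shares of all genes were not counted for these fits or, apart from the required log2 change of 1, for the other settings. These counts describe the listed genes only. Calls were lost for Adm (without 430 0 h array 2 or 3 or 24 h array 2 or 3), Epas1 (without 0 h array 2 or 3 or 24 h array 3) and Slc2a3 (without 0 h array 1). On the exon arrays they were lost for Aldoa (any array), Tpi1 (0 h array 1 or 2, 24 h array 1 or 2), Slc16a3 (0 h array 1 or 3, 24 h array 1 or 3), Slc2a1 (any 0 h array) and Ldhb (0 h array 2).

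With the replicate number as a block, 7 members were higher and 25 lower on the 430 arrays, 16 higher and 2 lower on the exon arrays, 13 and 34, and 21 and 7, of the other pathway genes, and 9 members did not mirror each other. Other settings also ended calls of members. On the 430 arrays these were Adm (array medians removed, quantile normalization, mean of features, block, variance trend; adjusted p from 0.0571 to 0.195), Epas1 (medians removed 0.0942, mean of features 0.0521), Arnt (mean of features 0.142) and Pfkm (quantile normalization 0.0674). On the exon design they were Aldoa (medians removed 0.0564, block 0.136), Slc16a3 (quantile normalization 0.0536, block 0.11), Ldhb (mean of features 0.595, block 0.0537) and Tpi1 (block 0.0987). Signs turned only for changes that were not called in the main fit. Pdk1 turned to -0.19 on the 430 arrays with the mean of its features (adjusted p = 0.0365), and P4ha1 to 0.05 with quantile normalization. On the exon arrays, quantile normalization turned Arnt to -0.07, Bnip3l to -0.04, P4ha1 to -0.01, Kdm3a to -0.13 and Higd1a to -0.06. With 1 array left out, Eno2 ranged from -0.13 to 0.06 and P4ha2 from -0.01 to 0.13 on the 430 arrays. The exon ranges were -0.08 to 0.06 for Slc2a3, -0.15 to 0.16 for Higd1a, -0.03 to 0.14 for Bnip3l, -0.04 to 0.04 for Kdm3a, -0.10 to 0.15 for Nrn1, -0.03 to 0.13 for Arnt, -0.08 to 0.04 for P4ha2 and -0.12 to 0.43 for Adm. Except where a setting is stricter or drops an array by construction, the cause was not tested. The median change of all genes stayed between -0.04 and 0.07, except at 0.13 on the exon arrays without dim features. Slc2a3, Eno2, P4ha2 and Adm on both designs and Slc16a3 on the 430 arrays lay below the median feature. Their signal over background was not tested.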
